A study of Mus musculus with 6 samples.

Results

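The core circadian clock loop was followed through 10 genes in epididymal white fat: the activators Arntl, Clock and Npas2, and the repressors Per1, Per2, Per3, Cry1, Cry2, Nr1d1 and Nr1d2. They were chosen by symbol from a deposited table of 22322 genes, each symbol matched 1 row, and all 10 passed the filter on low counts that left 13829 genes for testing. There were 3 CD44 KO and 3 wild type libraries, all from mice on a high fat diet for 17 weeks. Cd44, the targeted gene, encodes a receptor that binds hyaluronan at the cell surface. Strain, age, design of the knockout allele and time of day at collection are not given in the sources, and neither is whether each library is a separate animal, so p-values measure only the spread between these 6 libraries.

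In the mammalian clock the BMAL1 protein, encoded by Arntl, pairs with CLOCK or NPAS2 and binds E-box sequences to switch on the Per, Cry and Nr1d genes. PER and CRY proteins then block that pair, while REV-ERB proteins, encoded by Nr1d1 and Nr1d2, repress Arntl, Clock and Npas2 through sites called ROREs. The resulting rhythm runs in adipocytes as well as in other cells of fat, with Arntl and Nr1d1 at their highest at opposite times of the day.

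Cd44 had 28, 50 and 34 counts in the CD44 KO libraries, against 3091, 10580 and 6000 in the wild type libraries, which fits the labels. Totals per library ran from 15543317 to 18765009 expected counts. CD44 KO replicate 2 stood apart by epididymis transcripts: the summed level of 7 epididymis markers was 11065 CPM (counts scaled by library size) there, against 12.7 and 6.93 in the other CD44 KO libraries and 0.97 to 1.51 in wild type.

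All 7 repressors stood higher and all 3 activators lower in CD44 KO than in wild type, but Per3 was the only member called. A gene was called at an adjusted p under 0.05 in edgeR's quasi-likelihood test over all tested genes, and 2.62% of those genes were called, 1.74% higher and 0.882% lower. At an unadjusted p under 0.05 the test passed 6 of 7 repressors, all higher, beside 16.3% of all tested genes higher, and 2 of 3 activators, both lower, beside 14.7% lower. In either direction this was 8 of 10 members beside 31.0% of all tested genes. The median log2 fold change of CD44 KO over wild type was 1.06 for the repressors and -1.30 for the activators, beside 0.03 for all genes tested. As the time of day at collection is not given, its part in these differences between genotypes was not tested.

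**Figure D1:**
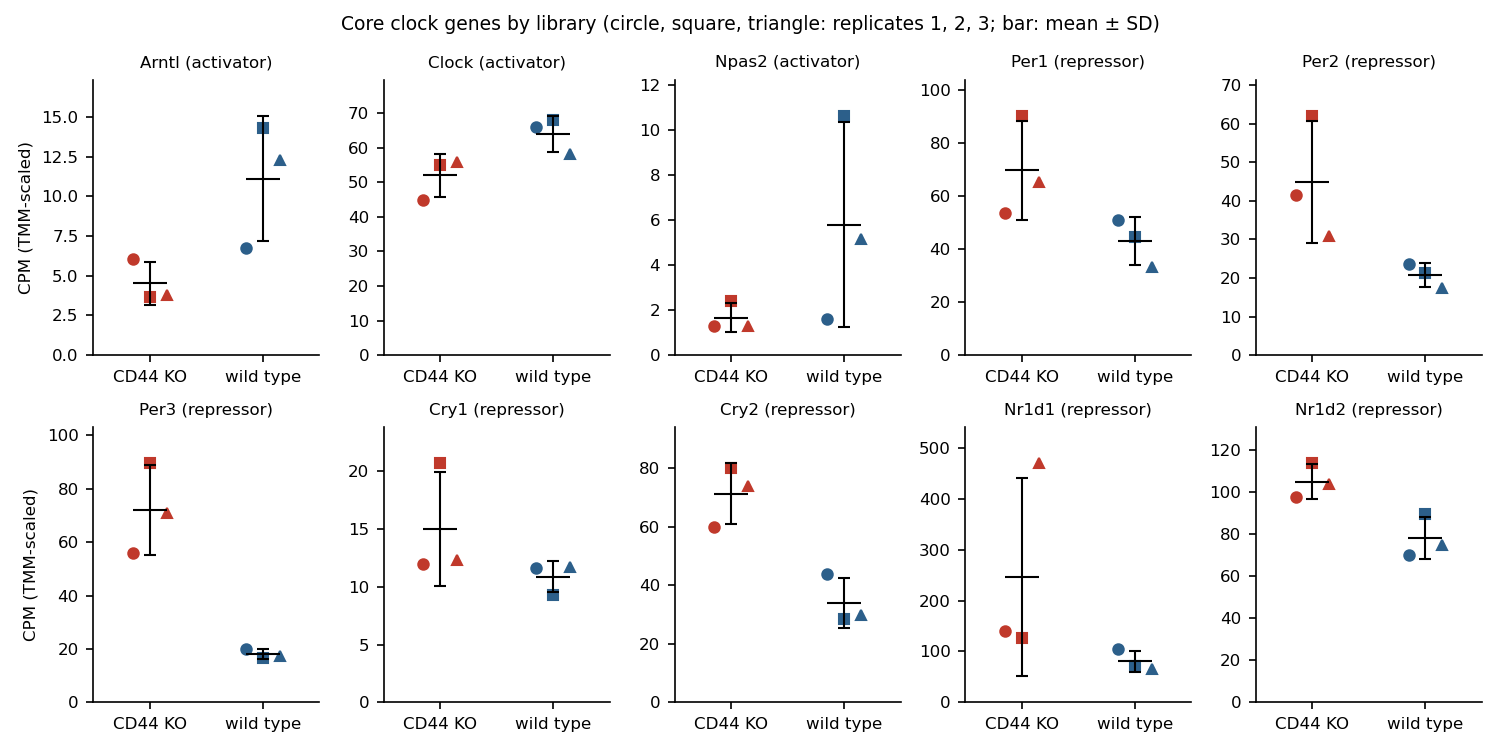
Level of each of the 10 clock genes in TMM-scaled CPM (vertical axes, from 0), with CD44 KO in red and wild type in blue. Circles, squares and triangles are replicates 1, 2 and 3, and bars show the mean and SD of 3 libraries. Per3 lies between 55.9 and 89.6 CPM in CD44 KO and between 16.8 and 20.2 CPM in wild type, while the groups overlap for Npas2.

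Promoter sequences of 4 of the 5 members that carried a searched clock motif are shown first, because genes for factors known to act through such motifs are among those measured. RefSeq windows (GRCm38.p6) were found for 9 members, and the 250 bases before each start were searched on both strands. The motifs were the E-box CACGTG, the E'-box CACGTT, the D-box TTATGNAA and the RORE written as TAGGTCA or TGGGTCA. Positions are those of the first motif base, with -1 just before the start. Per3 held D-boxes at -205 and -158, and Per1 an E-box at -166 and a D-box at -24. Cry1 held an E-box at -60 and an E'-box at -79, and Nr1d1 an E'-box at -28. The sequences, read 5′ to 3′ on the strand of the gene with motifs in capitals, follow.

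Per3, chr4:151044666-151044915, minus strand: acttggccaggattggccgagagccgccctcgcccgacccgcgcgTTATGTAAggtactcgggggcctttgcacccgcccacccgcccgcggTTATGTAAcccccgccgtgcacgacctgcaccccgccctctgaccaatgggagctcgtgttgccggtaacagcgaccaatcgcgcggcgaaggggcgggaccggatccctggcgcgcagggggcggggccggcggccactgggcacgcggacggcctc
Per1, chr11:69098699-69098948, plus strand: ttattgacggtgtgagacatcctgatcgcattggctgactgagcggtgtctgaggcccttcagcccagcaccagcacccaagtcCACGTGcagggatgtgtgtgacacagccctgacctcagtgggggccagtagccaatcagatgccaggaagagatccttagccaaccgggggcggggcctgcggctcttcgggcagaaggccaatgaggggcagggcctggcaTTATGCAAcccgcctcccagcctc
Cry1, chr10:85185055-85185304, minus strand: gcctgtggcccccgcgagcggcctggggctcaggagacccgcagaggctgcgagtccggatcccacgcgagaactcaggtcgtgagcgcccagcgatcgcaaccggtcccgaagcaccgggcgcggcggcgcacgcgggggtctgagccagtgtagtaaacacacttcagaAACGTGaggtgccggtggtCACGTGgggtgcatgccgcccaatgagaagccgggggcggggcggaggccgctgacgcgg
Nr1d1, chr11:98775378-98775627, minus strand: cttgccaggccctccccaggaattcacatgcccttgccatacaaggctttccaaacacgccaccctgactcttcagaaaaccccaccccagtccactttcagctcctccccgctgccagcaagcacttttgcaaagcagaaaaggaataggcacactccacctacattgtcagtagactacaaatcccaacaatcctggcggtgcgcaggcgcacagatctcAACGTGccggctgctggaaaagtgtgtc

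Across all 32851 RefSeq windows of that length, 6.02% held the E-box, 3.85% the E'-box, 3.07% the D-box and 5.38% the RORE. Cry2 held an E'-box at -166, the second window of Per1 held no motif, and the windows of Arntl, Clock, Npas2 and Nr1d2 held none of the motifs. A match describes the letters in this window and is not evidence of binding. A lack of matches covers only the searched letters within these windows. ROREs spelled with other letters, or lying outside a window or across its edge, were not searched. The windows therefore cannot show that Arntl, Clock and Npas2 lack ROREs.

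Among the activators, Arntl, which encodes BMAL1 and lies on the plus strand of chromosome 7 from 113207465 to 113314126 (GRCm38, from GENCODE M21 by identifier, as for the other genes), had 6.05, 3.66 and 3.82 CPM in CD44 KO replicates 1 to 3, against 6.72, 14.3 and 12.3 CPM in wild type replicates 1 to 3. The groups did not overlap, yet CD44 KO replicate 1 and wild type replicate 1 lay next to each other. Its log2 fold change was -1.30 (SE 0.37, 95% interval -2.18 to -0.42, edgeR adjusted p 0.0898). Without CD44 KO replicate 1 it was -1.57 and was called (edgeR adjusted p 0.0468), in a fit that called 2370 genes beside 362 with all libraries. The other 5 fits that each left out a library gave -1.54 to -1.07 and did not call it (edgeR adjusted p 0.0676 to 0.292).

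Npas2, which encodes an alternative partner of BMAL1, is a low transcript, with 22, 40 and 20 expected counts in CD44 KO and 27, 197 and 99 in wild type. Wild type replicate 1 fell inside the CD44 KO range, and the wild type libraries differed 6.67-fold among themselves. The log2 fold change was -1.79 (SE 0.70, 95% interval -3.48 to -0.10, edgeR adjusted p 0.145), and it was -1.01 without wild type replicate 2.

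Clock encodes the other partner of BMAL1 and varied least among the activators, at 44.9, 55.1 and 55.9 CPM in CD44 KO against 66.0, 68.0 and 58.2 CPM in wild type. Its libraries did not overlap between the genotypes, but the gap between the nearest libraries was small. The log2 fold change was -0.30 (SE 0.15, 95% interval -0.66 to 0.06, edgeR adjusted p 0.212).

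Per3, a member of the period family of repressors, rose in CD44 KO. It had 55.9, 89.6 and 70.8 CPM in CD44 KO, against 20.2, 16.8 and 17.5 CPM in wild type, so that every CD44 KO library stood far above every wild type one. This was a 3.97-fold increase (95% interval 2.80 to 5.62), a log2 fold change of 1.99 with SE 0.21, and edgeR gave an adjusted p of 0.0242. The call was lost without CD44 KO replicate 3, wild type replicate 2 or wild type replicate 3 (edgeR adjusted p 0.0812, 0.104 and 0.189). Those fits called 7, 9 and 0 genes in all, while 2952, 2921 and 2386 had an unadjusted p under 0.05. The log2 fold change stayed between 1.80 and 2.14 in the 6 fits that each left out 1 library. Per3 lies on the minus strand of chromosome 4 from 151003652 to 151044665.

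Per2, whose protein forms the repressor complex with CRY, had 41.5, 62.0 and 30.9 CPM in CD44 KO and 23.5, 21.3 and 17.5 CPM in wild type. The groups did not overlap, and CD44 KO spread more, with a coefficient of variation of 35.2% against 14.7% in wild type. On the log2 scale CD44 KO was 1.11 above wild type (SE 0.28, edgeR adjusted p 0.0752). Per1, the period gene that also responds to glucocorticoids and cAMP, had 53.7, 90.3 and 65.2 CPM in CD44 KO against 51.1, 44.5 and 33.3 CPM in wild type. CD44 KO replicate 1 and wild type replicate 1 almost met, and the log2 value of the change was 0.70 (SE 0.25, edgeR adjusted p 0.127). In the authors' FPKM, which are scaled by length, those 2 libraries changed places, at 13.7 FPKM in CD44 KO replicate 1 and 16.1 FPKM in wild type replicate 1, so the groups overlapped.

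The cryptochrome genes encode the main inhibitors of the CLOCK and BMAL1 pair. Cry2 had 60.0, 80.2 and 74.1 CPM in CD44 KO, against 44.0, 28.6 and 29.8 CPM in wild type. Both groups were clear of each other, and the log2 fold change was 1.06 (SE 0.22, 95% interval 0.54 to 1.59, edgeR adjusted p 0.0558). It was called when CD44 KO replicate 1 was left out, at 1.17 (edgeR adjusted p 0.0299), and when wild type replicate 1 was, at 1.30 (edgeR adjusted p 0.0434), fits that called 2370 and 310 genes in all. The other 4 such fits gave 0.95 to 1.03 and did not call it (edgeR adjusted p 0.105 to 0.261). Cry2 lies on chromosome 2 from 92403646 to 92434043, 10.38 Mb from Cd44, the gene targeted in the knockout. An opposite-strand transcript, D930015M05Rik, shares 295 of the 6320 exon bases of Cry2. Cry1 had 12.0, 20.7 and 12.3 CPM in CD44 KO and 11.6, 9.32 and 11.7 CPM in wild type, and of the CD44 KO libraries only replicate 2 lay far from the wild type range. Its log2 fold change was 0.46 (SE 0.27, 95% interval -0.18 to 1.10, edgeR adjusted p 0.271), and 0.16 without CD44 KO replicate 2.

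Nr1d1, which encodes the nuclear receptor REV-ERB alpha and lies on the minus strand of chromosome 11 from 98767932 to 98775333, had 141, 126 and 470 CPM in CD44 KO and 104, 71.9 and 65.3 CPM in wild type. CD44 KO replicate 3 stood 3.71-fold above the lowest CD44 KO library, while the other CD44 KO libraries lay just above the wild type range. The log2 fold change was 1.61 (SE 0.56, 95% interval 0.27 to 2.95, edgeR adjusted p 0.119), and 0.73 without CD44 KO replicate 3. The exons of Nr1d1 share 263 bases with those of Thra, a thyroid hormone receptor gene on the opposite strand, out of 3077 exon bases. Strandedness of the libraries is not given, so reads in the shared part cannot be told apart. Thra had 80.7, 67.7 and 126 CPM in CD44 KO and 47.1, 39.0 and 39.4 CPM in wild type (log2 fold change 1.13, edgeR adjusted p 0.065).

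Nr1d2, which encodes REV-ERB beta, varied least of the repressors within CD44 KO, with a coefficient of variation of 7.75% there and 13.0% in wild type, at 97.8, 114 and 104 CPM in CD44 KO and 70.3, 89.8 and 74.8 CPM in wild type. The groups did not overlap, and CD44 KO was 0.43 above wild type on the log2 scale (SE 0.15, edgeR adjusted p 0.129). Over all members the libraries of the genotypes did not overlap in 7 of 7 repressors, which were higher in CD44 KO, and in 2 of 3 activators, which were lower, beside 19.7% and 18.1% of all tested genes in those directions.

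**Figure D2:**
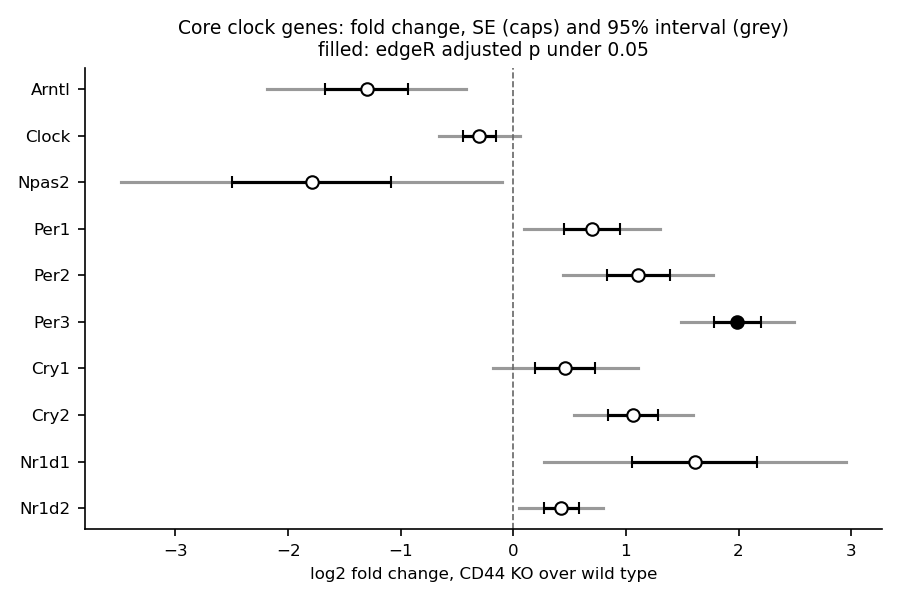
Log2 fold change of CD44 KO over wild type (horizontal axis) for the 10 clock genes, with the SE in black and the 95% interval in grey. Per3, at 1.99, carries the only filled point, which marks an edgeR adjusted p under 0.05, and the intervals of Clock and Cry1 reach across 0.

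The count of members called differed between tests. edgeR with other scaling factors or without the filter, and limma on log2 FPKM with a pseudocount of 0.1 or 1, each called 1 member, Per3. DESeq2 called 5 of 10 at an adjusted p under 0.05, with Per2, Per3, Cry2 and Nr1d1 higher and Arntl lower, against 19.7% of the genes it gave an adjusted p. In the authors' deposited table the same 5 genes were under 0.05, against 12.0% of the listed genes. As CD44 KO over wild type of mean FPKM, the authors' deposited table gave log2 values of 1.05 for Per2, 1.93 for Per3, 1.01 for Cry2, 1.57 for Nr1d1 and -1.34 for Arntl.

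Per length, Nr1d1 was the most abundant member in both genotypes, with 89.1 ± 71.5 FPKM in CD44 KO and 29.9 ± 7.75 FPKM in wild type (SD, n = 3 each). Nr1d2, Per1 and Cry2 followed in that order in both genotypes, at 17.6 to 22.1 FPKM in CD44 KO and 8.76 to 17.2 FPKM in wild type, and neighbours among these overlapped in their library values. Npas2 was the lowest member in both, with 0.55 ± 0.24 FPKM in CD44 KO and 1.46 ± 1.20 FPKM in wild type. In CD44 KO the next places went to Per3, Per2, Clock, Cry1 and Arntl, and in wild type to Clock, Arntl, Cry1, Per2 and Per3. Per3 thus averaged 11.8 ± 2.31 FPKM in CD44 KO, above Clock at 5.89 ± 0.53, and 3.10 ± 0.33 FPKM in wild type, below Clock at 7.68 ± 0.64.

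Setting activators against repressors within each library makes the outcome nearly independent of library scaling. The mean of an arm's log2 CPM, each gene centred on its own average across the 6 libraries, was -0.50, -0.37 and -0.62 for the activators in CD44 KO replicates 1 to 3, and -0.18, 1.08 and 0.59 in wild type replicates 1 to 3. For the repressors it was 0.23, 0.70 and 0.57 in CD44 KO and -0.31, -0.55 and -0.64 in wild type. Activators minus repressors came to -0.73, -1.06 and -1.19 in CD44 KO and 0.12, 1.63 and 1.23 in wild type. The genotypes did not overlap in this difference, and wild type replicate 1 lay nearest to the CD44 KO libraries. The group means differed by -1.99 on the log2 scale, beside an SD within groups of 0.58. As a score over chosen members it carries no p-value, and the part of collection time in it was not tested.

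**Figure D3:**
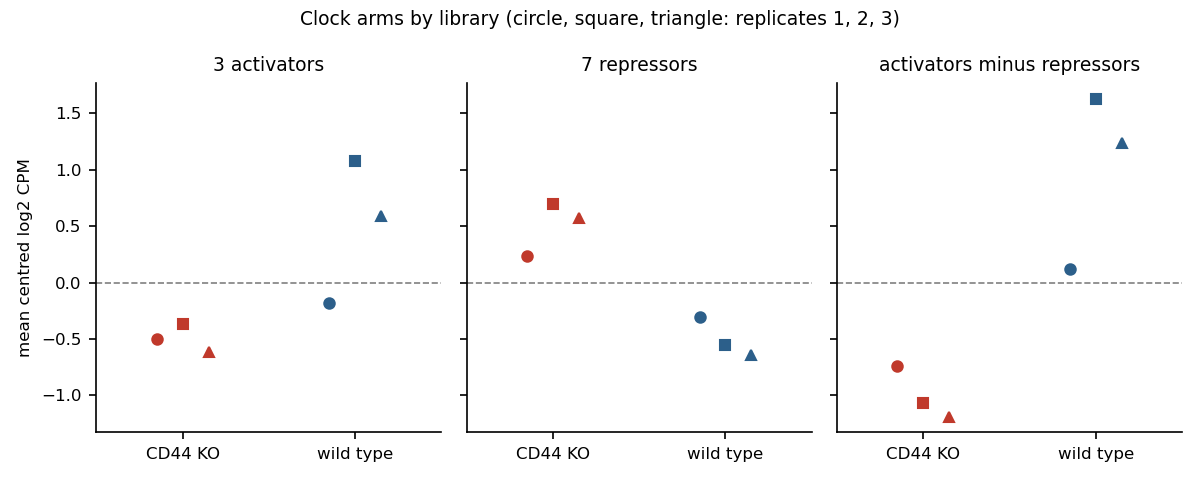
Mean centred log2 CPM (vertical axis) of the 3 activators, of the 7 repressors and of their difference in each library, with CD44 KO in red and wild type in blue. Circles, squares and triangles are replicates 1, 2 and 3. The difference lies between -1.19 and -0.73 in CD44 KO and between 0.12 and 1.63 in wild type.

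Pairs of single genes from opposite arms gave the same order of genotypes for 2 of 3 ratios. The log2 ratio of Arntl to Nr1d1 in FPKM was -4.62, -5.17 and -6.97 in CD44 KO and -4.03, -2.39 and -2.45 in wild type. Arntl over Per2 was -1.76, -3.04 and -1.94 in CD44 KO and -0.78, 0.47 and 0.55 in wild type. Npas2 over Nr1d1 was -7.40, -5.80 and -8.23 in CD44 KO and -6.67, -3.26 and -4.29 in wild type, where wild type replicate 1 fell among the CD44 KO values.

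Libraries of 1 genotype differed in a partly shared way. CD44 KO replicate 2 was the highest CD44 KO library for 6 of 7 repressors, and CD44 KO replicate 3 for the seventh, Nr1d1. Wild type replicate 2 was the highest wild type library for all 3 activators, and wild type replicate 1 for 5 of 7 repressors. Without CD44 KO replicate 2, which held the epididymis transcripts, activators minus repressors differed by -1.96 and Per3 remained called (log2 fold change 1.80, edgeR adjusted p 0.0348).

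Beyond the core loop, 3 of 9 tested factors that feed into it were called higher and 0 lower, beside 1.74% and 0.882% of all tested genes. Both at an unadjusted p under 0.05 and in DESeq2, 4 of the 9 were higher and 0 lower. Of all tested genes 16.3% were higher and 14.7% lower at that unadjusted p. DESeq2 called 19.7% of its genes in either direction. Dbp, Tef and Hlf, whose proteins are known to act through D-boxes, rose by log2 fold changes of 1.51, 1.32 and 2.19 (SE 0.26, 0.16 and 0.39; edgeR adjusted p 0.0434, 0.0266 and 0.0461). Dbp had 105, 96.0 and 168 CPM in CD44 KO against 50.5, 39.4 and 40.0 CPM in wild type, and was highest in CD44 KO replicate 3, as Nr1d1 was. Tef had 211, 254 and 229 CPM in CD44 KO against 106, 87.1 and 86.4 CPM in wild type. Hlf had 19.6, 44.0 and 18.9 CPM in CD44 KO against 7.25, 5.50 and 5.32 CPM in wild type, and both were highest in CD44 KO replicate 2, as 6 of the repressors were. Ciart, which encodes a repressor of the CLOCK and BMAL1 pair, had a log2 fold change of 1.36 and missed the threshold (SE 0.36, edgeR adjusted p 0.0798). Nfil3, which encodes a repressor that acts at D-boxes, stood at -0.58 (edgeR adjusted p 0.289). The list's median was 0.66, with 7 of 9 positive, and Rorb was too low to test.

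Genes for enzymes and binding partners of the clock proteins, such as the kinases that mark PER for destruction, gave 0 calls among 31. At an unadjusted p under 0.05 edgeR had 6 higher and 0 lower, beside 16.3% and 14.7% of all tested genes. DESeq2 called 4 higher, beside 19.7% of its genes in either direction, and the median was 0.18. The 4 of lowest p were Kat2b, an acetyltransferase gene, Hdac3 and Ncor1, which encode the corepressors that REV-ERB recruits, and Usp2, a deubiquitinase gene. Their log2 fold changes were 0.86, 0.57, 0.61 and 1.76 (edgeR adjusted p 0.0566, 0.076, 0.0939 and 0.0938). These 4, picked by p from the same libraries, were among 11 genes of the list that were higher without overlap of the genotypes. In the list 3 were lower without overlap. The shares of all tested genes were 19.7% higher and 18.1% lower.

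Among 10 output genes of the clock in liver and fat, 2 were called higher and 0 lower, beside 1.74% and 0.882% of all tested genes. Of the 10, 5 were positive and 5 negative, with a median of 0.20. At an unadjusted p under 0.05 edgeR had 4 higher and 3 lower, beside 16.3% and 14.7% of all tested genes. DESeq2 called 3 higher and 2 lower, beside 19.7% of its genes in either direction. Por, which encodes the electron donor of cytochrome P450 enzymes, had 520, 472 and 577 CPM in CD44 KO against 219, 231 and 207 CPM in wild type (a log2 fold change of 1.26 with SE 0.17, edgeR adjusted p 0.0307). Ppargc1a, which encodes the coactivator PGC-1 alpha, had 3.92, 7.03 and 6.41 CPM in CD44 KO against 0.88, 1.51 and 1.25 CPM in wild type (a log2 fold change of 2.24 with SE 0.39, edgeR adjusted p 0.0438). Cdkn1a, the cell cycle inhibitor p21, and Lpin1, a phosphatidate phosphatase gene, stood at log2 values of -1.80 and 1.48, which missed the threshold (edgeR adjusted p 0.0522 and 0.0537).

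Leaving out single libraries removed calls of these genes, as it did for Per3, while the log2 fold changes ranged from 1.24 to 1.43 for Tef, 1.21 to 1.66 for Dbp, 1.68 to 2.39 for Hlf, 1.17 to 1.32 for Por and 2.07 to 2.46 for Ppargc1a. With all libraries 5 of 50 other clock genes were called, beside 2.62% of all tested genes. That count was 0 without CD44 KO replicate 3, wild type replicate 2 or wild type replicate 3, while 14, 17 and 12 had an unadjusted p under 0.05. The other fits called 1 without CD44 KO replicate 2 (Hlf), 2 without wild type replicate 1 (Tef and Por) and 10 without CD44 KO replicate 1, of which 8 were higher and 2 lower.

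**Figure D4:**
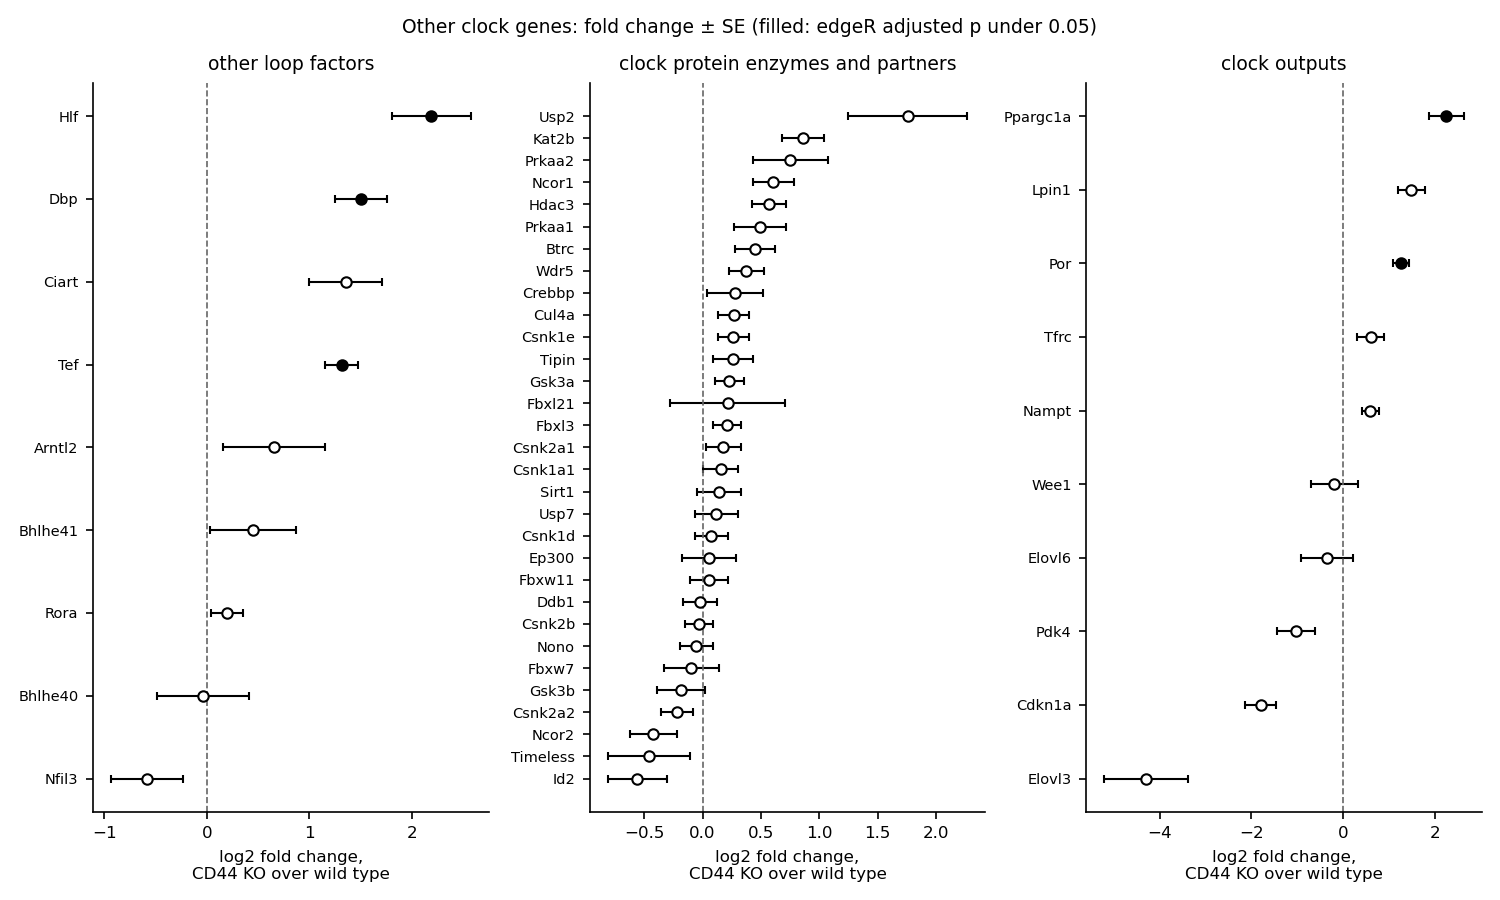
Log2 fold change of CD44 KO over wild type with SE (horizontal axes, which differ between panels) for 9 other loop factors, 31 enzymes and partners and 10 outputs. Filled points are the 5 genes with an edgeR adjusted p under 0.05: Hlf, Dbp and Tef on the left and Ppargc1a and Por on the right.

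Glucocorticoid-induced and immediate early genes were listed because Per1 is also switched on by such signals. edgeR called 0 of 10 and 0 of 12 of them. At an unadjusted p under 0.05 the counts were 5 higher and 1 lower, and 3 higher and 2 lower. Beside them stood 16.3% higher and 14.7% lower of all tested genes. DESeq2 called 3 higher and 1 lower, and 1 higher and 2 lower, beside 19.7% of its genes in either direction. Zbtb16 and Pik3r1 had the lowest p of the first list (log2 fold change 1.69 and 1.49, edgeR adjusted p 0.0629 and 0.0528), and Egr2 and Fosb of the second (-2.06 and 2.53, edgeR adjusted p 0.0824 and 0.115). The summed glucocorticoid-induced level was 1190, 1707 and 1417 CPM in CD44 KO and 1167, 1047 and 1157 CPM in wild type. These groups did not overlap, but CD44 KO replicate 1 lay just above wild type replicate 1. The list was mixed, with Mt2 at -0.81 (edgeR adjusted p 0.122) and Tsc22d3, Sgk1 and Mt1 at 0.01, 0.05 and -0.04. The highest library was CD44 KO replicate 2, which held the epididymis transcripts and was also the highest for Per1 and 5 other repressors. The part of glucocorticoid signals in the Per1 difference was not tested. The summed immediate early level was 594, 302 and 1020 CPM in CD44 KO and 530, 912 and 738 CPM in wild type, so the groups overlapped. That sum was highest in CD44 KO replicate 3, the library with the highest Nr1d1.

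Cell type markers moved with genotype beside the clock genes. The summed level of 15 adipocyte markers was 41810, 36570 and 56244 CPM in CD44 KO and 31483, 11825 and 19501 CPM in wild type. Of these markers 14 of 15 were positive and 9 were higher without overlap, beside 19.7% of all tested genes. Lep was the negative one, lower without overlap (log2 fold change -1.75, edgeR adjusted p 0.0682). Only Cfd, the adipsin gene, was called, and it was higher (log2 fold change 4.76, edgeR adjusted p 0.0473). The sum of 15 macrophage markers was 5858, 309 and 1110 CPM in CD44 KO and 5868, 12876 and 10138 CPM in wild type. Of these, 15 of 15 were negative, 10 of them not overlapping, beside 18.1% of all tested genes lower. edgeR called 0, with 5 lower at an unadjusted p under 0.05, beside 14.7% of all tested genes. DESeq2 called 5, beside 19.7% of its genes in either direction. No adipocyte or macrophage marker was at 0 in any library. CD44 KO replicate 1 and wild type replicate 1 were alike in the macrophage sum. These were also the nearest libraries across genotypes for Arntl, Per1, Per3 and Cry2. For Clock, Per2, Cry1, Nr1d1 and Nr1d2 another pair of libraries was nearest, and Npas2 overlapped. The 6 mesothelial markers summed to 55.1, 57.8 and 35.7 CPM in CD44 KO and 10.1, 11.2 and 3.65 CPM in wild type. For 9 fibroblast markers the sums were 2736, 959 and 1948 CPM in CD44 KO and 4824, 6654 and 5791 CPM in wild type. From these lists edgeR called the mesothelial Krt19 higher (log2 fold change 3.66, edgeR adjusted p 0.0473). It called the fibroblast Pi16 lower (log2 fold change -1.89, edgeR adjusted p 0.0499), beside 0.882% of all tested genes called lower. Of the 9 fibroblast markers 7 were negative and 2 positive, Ly6a at 0.01 and Dpp4 at 0.31. Lower without overlap were 6 of the 9, beside 18.1% of all tested genes. Sums of endothelial markers (763 to 1504 CPM in CD44 KO, 590 to 1237 CPM in wild type), T cell markers (at most 11.9 CPM in any library) and skeletal muscle markers (18.1 to 30.9 CPM in CD44 KO, 7.11 to 43.3 CPM in wild type) overlapped. In whole tissue, fewer cells of a type and less RNA per cell cannot be told apart, and the part of these cell types in the clock gene differences was not tested.

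**Figure D5:**
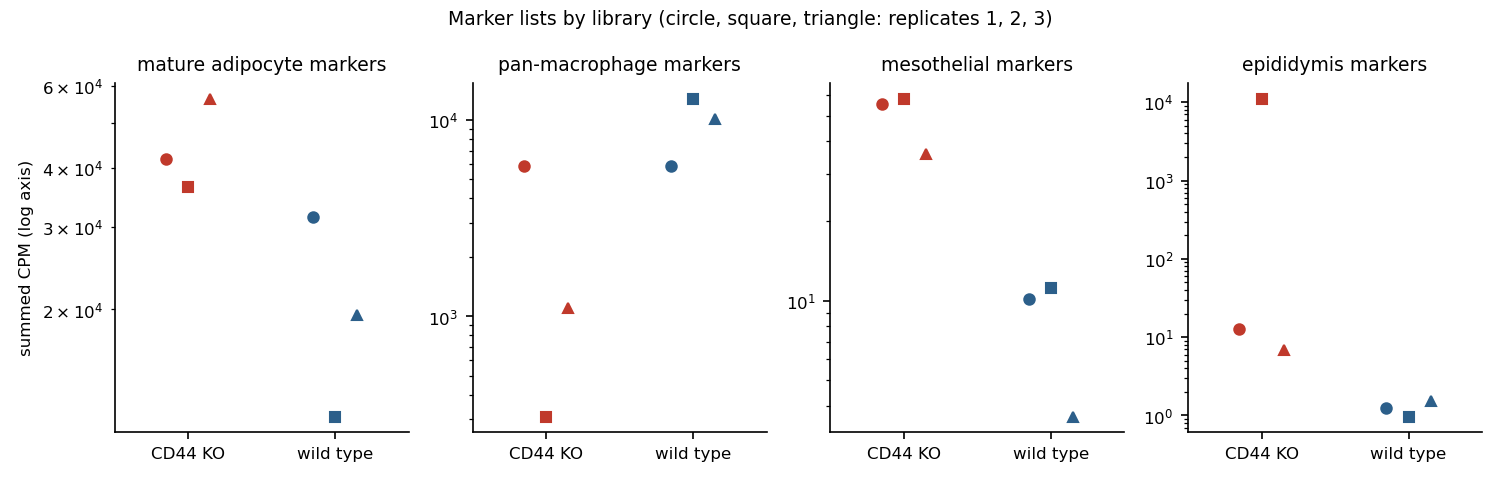
Summed CPM (vertical log axes, which differ between panels) of 15 adipocyte, 15 macrophage, 6 mesothelial and 7 epididymis markers in each library, with CD44 KO in red and wild type in blue and circles, squares and triangles for replicates 1, 2 and 3. Macrophage markers run from 309 to 5858 CPM in CD44 KO and from 5868 to 12876 CPM in wild type, and CD44 KO replicate 2 holds 11065 CPM of epididymis markers.

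The genes whose profiles over the 6 libraries lay nearest to Arntl were not clock genes. Likeness was the root mean square difference of centred log2 CPM among the 12914 genes that averaged 1 CPM or more, and unnamed gene models were passed over. Nearest were Atp6v1c1 and Atp6ap2, which encode a subunit and an accessory protein of the vacuolar proton pump, at 0.07 and 0.08. St6galnac4, a sialyltransferase gene, Cbfb, a transcription factor subunit gene, and Pi4k2a, a lipid kinase gene, followed at 0.08, 0.09 and 0.10. Npas2 and Clock came at places 3230 and 3662, with 0.64 and 0.67. Nearest to Nr1d1 were Gbp4, a guanylate-binding protein gene, at 0.17, Prr5l, Hoxc4 and Gfod2, each at 0.24, and the transcription factor gene Tcf7l2 at 0.26. Among the members Cry2 came nearest to Nr1d1, at place 857 with 0.62.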

How the data were processed

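RNA of epididymal fat was sequenced after oligo(dT) enrichment and NEBNext Ultra library preparation, per the labels' protocols. Per the submitters' processing notes the tools were HISAT2, StringTie 1.3.1, RSEM and DESeq2, with no role given. The genome build, annotation and strandedness are not stated there. The authors deposited expected counts (7.57% to 8.30% of a library's values were not whole) and FPKM with 2 decimals. The authors' comparison table, with a log2 fold change, p-value and adjusted p-value per gene, was used only where named.

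After rounding, the test was edgeR's (4.0.16, R 4.3.3): filterByExpr by group, TMM, robust glmQLFit and glmQLFTest, Benjamini-Hochberg over all 13829 tested genes, called under 0.05. The steps were tested on simulated counts with the same spread for every gene and no library set apart, unlike these data. That test cannot show how well the steps work on these libraries. CPM are TMM-scaled, and arm levels use log2 CPM with a prior count of 2. SE is the absolute log2 fold change over the square root of F, and 95% intervals use the test's moderated degrees of freedom. Alternatives were DESeq2 1.42.0, limma 3.58.1 on log2(FPKM + 0.1) or log2(FPKM + 1) with a mean FPKM of at least 0.1, RLE or upper-quartile factors, no filter, a replicate block, and leaving out each library. Named genes were the 10 members, the other clock genes called or among the 4 of lowest p in each list, the 2 of lowest p in each companion list, and the 5 genes most like Arntl and Nr1d1. Nfil3, Thra, Cfd, Lep, Krt19, Pi16, Mt2, Mt1, Tsc22d3, Sgk1 and D930015M05Rik were named after their values were seen. A gene of the other clock lists is not reported here and is left out of their counts. The members and lists were chosen with earlier results of these data known. Positions come from GENCODE M21 (GRCm38), which matched 22267 of 22322 identifiers. The groups share replicate numbers 1 to 3, but the deviations of same-numbered libraries did not move together. The numbers were not taken as pairs, though this check cannot show whether the libraries were paired in the experiment.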

Additional observations from a re-analysis of the deposited data

How the results depend on the processing

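Every member kept its sign in all 13 alternatives. The counts of calls did not hold. With all libraries and the filter edgeR called 362 genes, 1 member and 5 other clock genes. DESeq2 called 2946, 5 and 13. Without the filter edgeR called 230 genes and 2 other clock genes, and limma with a pseudocount of 1 called 2 other clock genes. Leaving out 1 library gave 0 to 2370 genes, 0 to 3 members and 0 to 10 other clock genes, and -2.43 to -1.67 for activators minus repressors. On log2 FPKM with a pseudocount of 0.1 or 1, activators minus repressors differed by -1.79 or -1.44. Limma with a pseudocount of 0.1 called 4 other clock genes, 2 higher and 2 lower. With the replicate block edgeR called 0 genes (2805 at an unadjusted p under 0.05), 0 members (6 unadjusted) and 0 other clock genes (14 unadjusted), and Per3 stood at 1.97 (edgeR adjusted p 0.14). Correlations of the deviations of same-numbered libraries were -0.32, -0.22 and -0.02. With 3 libraries per genotype they cannot show whether the numbers mark pairs. The cause of these shifts was not tested. Npas2 had only 20 to 197 counts per library. Intervals describe 3 libraries per genotype.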
